A study of Mus musculus with 4 samples.

Results

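Germ cells are the minority of the embryonic gonad that carries the germline, and in the mouse they enter the genital ridge around E11.5 and are enclosed in testis cords around E12.5. On arrival, these primordial germ cells still transcribe genes of the pluripotency network, such as Pou5f1 and Nanog, and erase most of their DNA methylation. At the same time they begin to transcribe germline genes, among them Dazl and Ddx4, which encode RNA-binding proteins. XY germ cells later stop dividing under the influence of Sertoli cells, whereas XX germ cells are induced by retinoic acid to express Stra8 and enter meiosis.

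Germ cells were taken from single-cell RNA sequencing libraries of XY gonads of ICR mice at E11.5 and E12.5, from which the mesonephros had been removed before dissociation with papain. A retained cell was counted as a germ cell if at least 3 of 6 genes, Pou5f1, Dppa3, Dazl, Ddx4, Dnd1, and Nanog, had at least 1 unique molecular identifier (UMI, which marks 1 captured transcript). The rule gave 175 germ cells among 2101 cells of E11.5 and 445 among 2764 of E12.5, in sum 620 of the 4865 cells of both stages and of the 10987 retained cells of the 4 XY libraries. The other 2 libraries were of the E10.5 XY gonad of ICR mice, dissected with surrounding dorsal mesenchyme, and of D6 XY cells induced from ESCs labelled C57BL/6J (N271S9C), whose parent line the study's methods trace to a cross of 129X1/SvJ with C57BL/6J, with the transgenes Nr5a1-hCD271 and Sox9-2A-CGFP and enriched by MACS for hCD271. Each stage was a single library, and the labels do not say how many embryos were pooled, so that no difference between E11.5 and E12.5 could be tested against replicates. All intervals given are exact 95% intervals, the limit for a count of 0 is that of 3 cells with a UMI unless it is called exact, and both cover counting error only.

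The E11.5 library was retained with a wider limit on cell quality (more than 500 detected genes and under 20% mitochondrial UMIs) than the E12.5 library (more than 2000 and under 8%), and both had to have fewer than 5000 genes. Germ cells at E11.5 held 2905950 UMIs, with a median of 17837 per cell and a range of 1024 to 32735. Those at E12.5 held 8535748 UMIs, with a median of 18639 and a range of 10140 to 34524. At E11.5, 24 germ cells had under 2000 genes and 14 had at least 8% mitochondrial UMIs, and no germ cell at E12.5 did. Germ cells were deeper than the 1661 and 1992 cells with none of the 6 genes, whose medians were 11424 and 9941 UMIs. The limit of 5000 genes removed 8.33% of the E11.5 and 10.6% of the E12.5 barcodes with at least 3 of the genes, against 8% and 4.62% of the barcodes with none. Ribosomal protein genes took 32.2% of the UMIs of germ cells at E11.5 and 29.2% at E12.5, against 25.9% and 23.9% in the other cells, and the median mitochondrial share of germ cells was 3.91% and 3.11%. The libraries shared 7 retained barcodes, and none of these was a germ cell in both.

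Germ cells were 8.33% (7.18 to 9.59) of the retained cells at E11.5 and 16.1% (14.7 to 17.5) at E12.5, and these intervals did not overlap. With cells randomly reduced to a common depth of 3000 UMIs, for which 308 cells of E11.5 were too shallow and no cell of E12.5 was, the shares were 6.64% and 14.3%. The share may follow dissection, dissociation, and the cell filter as well as the embryo, and their part was not tested. At E12.5 few cells lay near the limit of the rule, with 442 of the 445 germ cells holding 4 or more of the genes, 3 cells holding exactly 3, and 18 holding 2. At E11.5, 26 cells held exactly 3 and 36 held 2. The 26 cells just inside had a median of 4130 UMIs and the 36 just outside 10084. Of the 26, 96.2% had a UMI of Dppa5a, a gene expressed in pluripotent and germ cells that the rule did not use, against 55.6% of the 36.

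**Figure D1:**
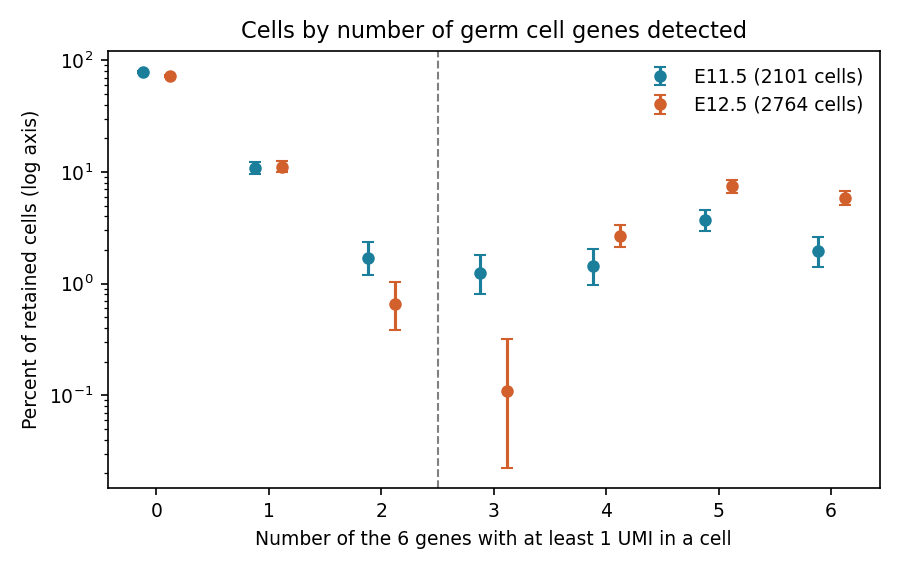
Share of retained cells (log axis) by the number of the 6 genes with at least 1 UMI, at E11.5 and E12.5, with exact 95% intervals for counting error; cells right of the dashed line were counted as germ cells. Cells with 2 or 3 genes were 1.71% and 1.24% at E11.5 and 0.651% and 0.109% at E12.5.

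The genes of the rule are given as a description, since they chose the cells. Dppa3, which protects maternal and imprinted methylation in the early embryo, had the highest level at both stages, with 1105 CPM at E11.5 and 2413 CPM at E12.5, where CPM is the usual scaling of the summed counts of all germ cells of a library by their total. Dazl had 381 and 812 CPM, and Ddx4, a helicase of germ granules, had 70.2 and 118 CPM. The level of Pou5f1, the pluripotency factor also called Oct4, was 665 CPM at E11.5 and 637 CPM at E12.5. Dnd1, an RNA-binding protein required for germ cell survival, had 118 and 135 CPM, and Nanog had 43.0 and 35.0 CPM. Dppa3 and Dazl were thus more than 2-fold higher at E12.5, while Pou5f1 and Nanog had close levels at both stages. Dazl was no longer past 2-fold after thinning (log2 ratio 0.71) or with per-cell CPM (0.97). For log2 ratios after thinning, the rule was applied again to the thinned counts, which left 119 and 394 cells. Dazl is itself a gene of the rule, so that its thinned ratio also depends on this new choice of cells.

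Over single cells, Dppa3 had a median of 9.87 UMIs per 10000 at E11.5 and of 23.7 at E12.5. The upper quartile at E11.5 (13.6) lay under the lower quartile at E12.5 (19.3). For Dazl, the medians were 3.50 and 7.87, and the upper quartile at E11.5 (5.53) was also under the lower quartile at E12.5 (5.90). For Pou5f1, the medians of 6.54 and 6.23 lay within the quartiles of the other stage. Among cells chosen by the other 5 genes, Ddx4 was detected in 105 of 173 at E11.5 (60.7%) and 368 of 445 at E12.5 (82.7%), and Nanog in 44.8% and 48.1%. For detection after thinning, the germ cells were those chosen before thinning that had at least 3000 UMIs (163 and 445). In these, Ddx4 was in 22.7% and 30.1% and Nanog in 16.6% and 10.3%, so that the order of the stages turned for Nanog. In endothelial cells of the same libraries, which should lack these genes, Dppa3 was detected in 8.33% of 48 cells at E11.5 and 5.71% of 35 cells at E12.5, at median depths of 17356 and 14273 UMIs, and Ddx4 and Nanog in none (exact upper limits, 7.40% and 10.0%). Cells that also met the germ cell rule, 10 and 23 in number, had been set aside from these, which by itself lowers the shares. With endothelial cells chosen instead by at least 3 of the 5 markers other than Pecam1 and none set aside, a choice made after the values were seen, no cell met the germ cell rule and Dppa3 was in 6.52% of 46 and 5.88% of 34 cells.

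**Figure D2:**
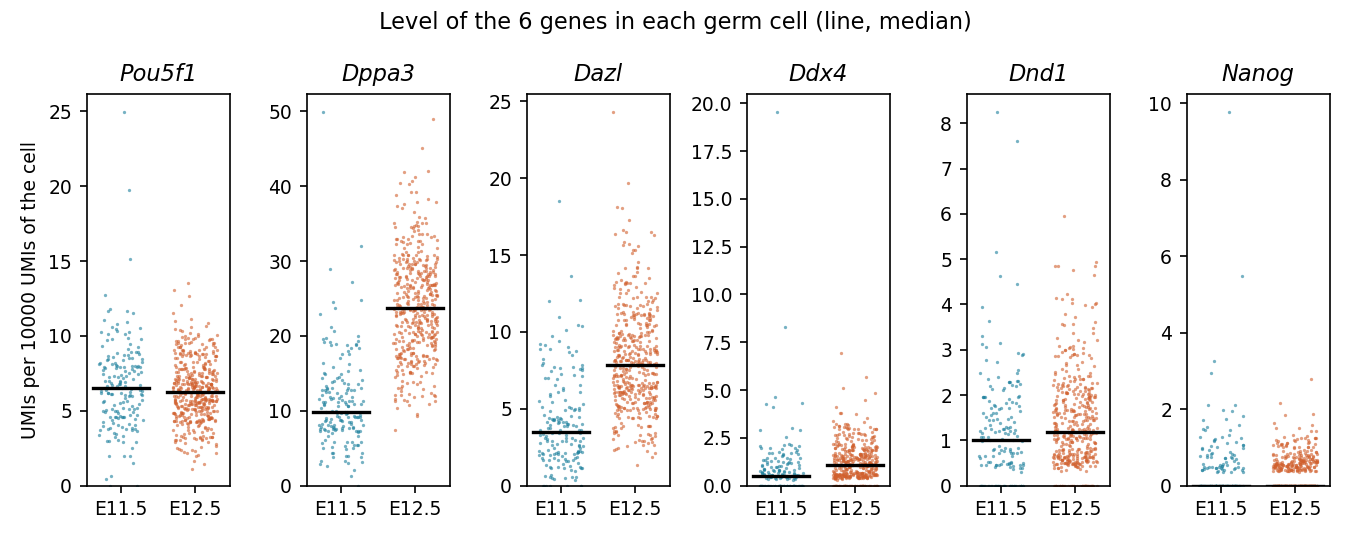
UMIs of each of the 6 genes per 10000 UMIs of the cell in the 175 germ cells of E11.5 and the 445 of E12.5, with 1 point per cell and the median as a line. The medians of Dppa3 (9.87 and 23.7) and Dazl (3.50 and 7.87) are set apart, whereas those of Pou5f1 (6.54 and 6.23) are close.

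The label was checked with genes that the rule did not use. Dppa5a was detected in 99.4% of E11.5 and 100% of E12.5 germ cells, and Utf1, a chromatin factor of pluripotent cells, in 97.1% and 100%. In the 48 and 35 endothelial cells, Dppa5a was in 6.25% and 2.86% and Utf1 in 2.08% and 0. In the cells with none of the 6 genes, with median depths of 11424 and 9941 UMIs, Dppa5a was in 5.00% and 4.42% and Utf1 in 11.9% and 11.3%. The summed level of 7 Sertoli markers in germ cells was 7.43% of that in the cells with none of the genes at E11.5 and 1.41% at E12.5, with all 7 detected and Aard the most abundant. For 6 interstitial markers it was 3.15% and 1.64%, with all 6 detected and Tcf21 and then Nr2f2 the most abundant. The 6 endothelial markers summed to 119 CPM at E11.5 and 94.7 CPM at E12.5, above the other cells, but Pecam1, which germ cells are known to express, accounted for 86.4 and 62.8 CPM, and Cdh5, an endothelial cadherin, had 1.72 and 0.586 CPM. The 6 coelomic epithelium markers stood at 6.39% and 7.31% of the other cells' level, with Lhx9 and then Krt18 the most abundant, and the 6 macrophage markers at 5.37% and 7.80%, with 4 and 5 of them at 0. Hbb-y, the embryonic globin of primitive red cells, had 60.6 and 39.1 CPM in germ cells and 6740 and 415 CPM in the other cells. The Y-linked gene Eif2s3y was detected in 75.4% and 89.0% of germ cells.

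Germ cells were then set beside the cells with none of the 6 genes in the same library, as a description, since the rule chose both groups. At E11.5, 16.0% of 8793 genes were at least 2-fold higher and 26.4% at least 2-fold lower in germ cells, and at E12.5 15.5% and 27.9% of 8792. Beside Dppa3, Pou5f1, Dazl, and Dnd1, the 12 genes with the largest excess in both libraries were Dppa5a, Rhox9, L1td1, Dppa4, Rhox6, Lefty2, Sox2, and the unnamed locus Gm48168. Dppa5a had 2691 and 3345 CPM in germ cells and 5.01 and 4.20 CPM in the other cells. L1td1, an RNA-binding protein derived from a LINE-1 element, had 211 and 242 CPM against 0.327 and 0.508 CPM. Genes of the pluripotency network and the later germline genes are not counted here, since most passed the filter on low values through germ cells, where they are high, nor are Sertoli, interstitial, ligand, and stress genes, many of which passed through the other cells. The 12 genes furthest below the other cells were Cst9, Tshz2, Ptn, Cst8, Tgfbi, Ccnd2, Col1a2, Hmga2, Dlk1, Itm2a, Timp3, and Nr2f2. Cst9, a cystatin, had 4.47 and 6.56 CPM against 425 and 948 CPM, and Hmga2, a chromatin protein of growing embryonic tissue, had 24.8 and 11.4 CPM against 917 and 702 CPM.

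The main comparison was that of summed germ cells of E12.5 with those of E11.5. Of 7259 genes with at least 20 UMIs and at least 10 CPM in the higher group, 115 (1.58%) were at least 2-fold higher and 126 (1.74%) at least 2-fold lower at E12.5 on the log2(CPM + 1) scale, and the median log2 ratio was 0.03. The same comparison in cells with none of the 6 genes gave 126 higher (1.54%) and 97 lower genes (1.19%) of 8182, shares close to those in germ cells. Of the 115 genes, 65 could also be compared in the other cells, and 5 of these were called in the same direction there and 3 in the opposite one. Of the 126, 85 could be compared, with 8 in the same and 2 in the opposite direction. In 63 of the 115 and 44 of the 126, the level in germ cells was at least 2 times that of the other cells in the library where the gene was higher. In 31 of the 115 and 55 of the 126, the level in germ cells was under that of the other cells.

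**Figure D3:**
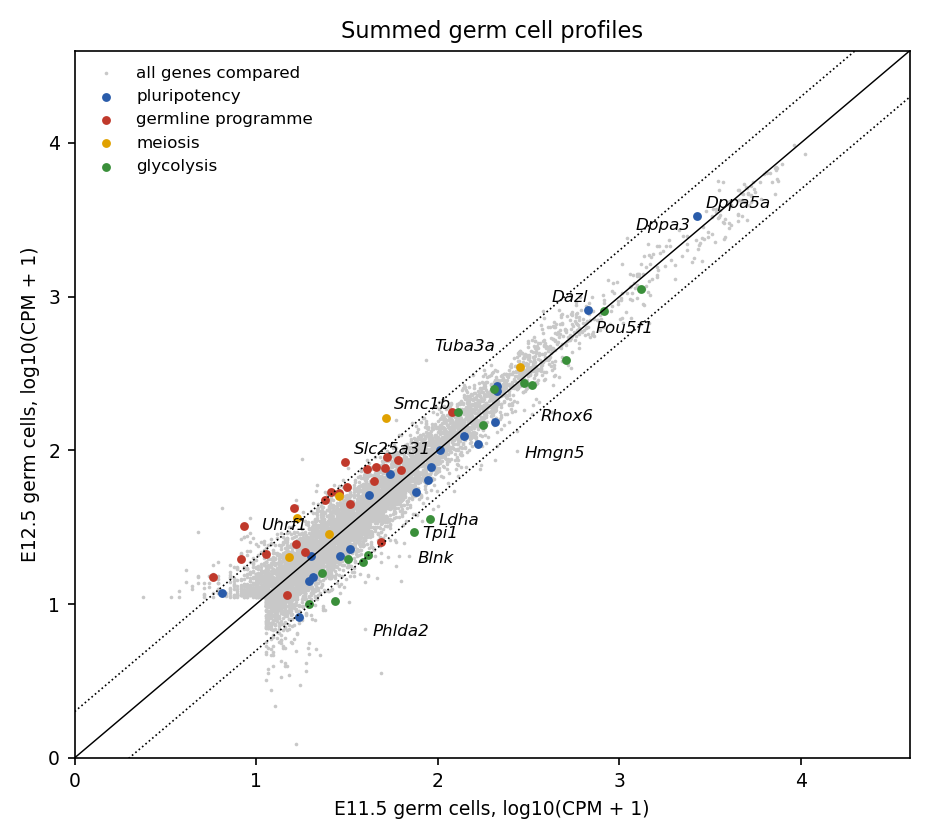
Levels of the 7259 genes compared, as log10(CPM + 1) in the summed germ cells of E11.5 and E12.5, with 4 gene lists in color; the solid line marks equality and the dotted lines a 2-fold difference on this scale. Tuba3a and Smc1b lie above the upper dotted line, Blnk, Hmgn5, and Phlda2 below the lower one, and Pou5f1 and Dppa5a near the solid line.

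Genes named here for their size were at least 2 times the level of the other cells in the library where they were higher, which sets no limit in the other library. Among these, the largest excess at E12.5 was that of Tuba3a, an alpha-tubulin of the testis (GRCm38 chromosome 6, 125278274 to 125286042, minus strand), with 85.0 CPM at E11.5 and 388 CPM at E12.5. This was a 4.57-fold difference (4.01 to 5.22), and the gene was detected in 61.1% and 98.4% of the germ cells (22.1% and 65.8% after thinning). Tuba3b, a near-identical copy on the same chromosome at 145615757 to 145621479, had 7.57 and 31.4 CPM, and reads of the pair may have been divided between them. Smc1b, the meiosis-specific cohesin subunit (chromosome 15, 85064689 to 85131964, minus strand), was 3.21-fold higher (2.71 to 3.84), with 50.6 and 163 CPM. Slc25a31, the ADP/ATP carrier of germ cells, was 2.76-fold higher (2.21 to 3.49). In the other cells, Tuba3a had 0.218 and 0.831 CPM and Smc1b 0.436 and 1.15 CPM. The remaining genes chosen by size were Wrap73, Lmo1, Rhox1, Actn2, Mrps31, Brdt, and Nae1, which were 2.11-fold to 2.61-fold higher, and of which Wrap73, Actn2, and Mrps31 after thinning, Lmo1 with at least 2 of the 6 genes, Rhox1 with no cell filter, and Brdt and Nae1 with per-cell CPM were under the limit. At E11.5, Lmo1 lay under the other cells (log2 ratio -1.06). Wrap73, Mrps31, and Nae1 were less than 2-fold above them there (0.12, 0.35, and 0.38).

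In the other direction, Blnk, an adaptor protein known from B cells, was 3.54-fold lower at E12.5 (2.87 to 4.37), with 68.8 and 19.4 CPM, and was nearly absent from the other cells (0.327 and 0.139 CPM). Hmgn5, a nucleosome-binding protein encoded on the X chromosome, had 271 and 97.7 CPM, which was 2.78-fold lower (2.51 to 3.06), while in the other cells it had 54.0 and 70.5 CPM. Amt, of the glycine cleavage system, was 2.68-fold lower (2.18 to 3.28), and Pdgfa, a growth factor of the PDGF family, was 2.28-fold lower (2.02 to 2.57). Mt2, a metallothionein, had 53.3 and 25.1 CPM and was past the limit in 8 of 12 alternatives of processing. Its log2 ratio was -0.79, under the limit, with at least 2 of the 6 genes. Rhox6 had 330 and 170 CPM, a 1.94-fold difference that did not pass the limit. Cep89 (under the limit after thinning, log2 ratio -0.55), 1700019D03Rik, and 1500009L16Rik were also at least 2-fold lower, and BC048679, Rrn3, and 1700097N02Rik were between 1.83-fold and 1.89-fold lower. At E12.5, 1500009L16Rik lay under the other cells (log2 ratio -0.45). Pdgfa, Mt2, Cep89, Hmgn5, and Rrn3 were less than 2-fold above them there (0.17, 0.35, 0.45, 0.46, and 0.86).

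The list of 33 germline genes that are transcribed once germ cells have settled in the gonad had the highest median among the lists compared between the stages. Of its 23 genes compared, 6 were at least 2-fold higher, where 1.58% of all genes were, none was lower, and 21 had a ratio above 1, with a median log2 ratio of 0.79 against 0.03 for all genes. Tuba3b, Sycp1, and Gtsf1 were under 10 CPM at E11.5 and passed the filter through E12.5, where they are higher, so that their place in the count is fixed by it. The median over all 31 listed genes with a UMI was 0.67. Those past the limit were Tuba3b, Slc25a31, Tex101, Sycp1, Gtsf1, and Brdt. Sycp1, of the synaptonemal complex, had 4.82 and 14.1 CPM (2.92-fold, 1.67 to 5.50), Tex101, a surface protein of germ cells, had 15.1 and 40.9 CPM (2.70-fold, 1.97 to 3.78), and Gtsf1, of the piRNA pathway, had 7.23 and 18.6 CPM (2.58-fold, 1.63 to 4.28). Under the limit, Mael had 51.6 and 90.0 CPM, Asz1 39.6 and 74.4 CPM, Tdrd5 27.5 and 51.9 CPM, and Piwil2 17.6 and 20.7 CPM. Sycp3 had 30.6 and 56.8 CPM, and its detection was 30.3% and 64.3% (9.20% and 15.3% after thinning), against 0 of the endothelial cells. The 2 exceptions were Rpl10l, a ribosomal protein of male germ cells, with 47.8 and 24.3 CPM, and Hormad2, with a log2 ratio of -0.36. Summed over the list, the level was 791 CPM (759 to 825) at E11.5 and 1277 CPM (1253 to 1301) at E12.5, and 28.3 and 24.3 CPM in the other cells.

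Promoters of germline genes of this kind are known to be held silent elsewhere by DNA methylation and by the complex that contains MGA, MAX, and E2F6, which binds E-box and E2F sites. The RefSeq promoter table on GRCm38.p6 (250 bases before to 50 bases after a gene's start) held 28 of the 33 genes. The E-box CACGTG, a palindrome, was in the promoters of 14 of these 28 (50.0%), of 771 of the 5809 genes compared in germ cells that had an entry (13.3%), and of 8.09% of the 27025 genes in the table. The letters GCGGGA, searched on both strands, were in 9 of the 28 (32.1%), 43.1%, and 22.1%, respectively. On the meiosis list, 2 of 17 genes with an entry held CACGTG (11.8%) and 10 held GCGGGA (58.8%). Of the 8 germline or meiosis genes at least 2-fold higher at E12.5, 4 held CACGTG and 5 GCGGGA, and the promoters of the first 4 are printed 5′ to 3′ on the strand of the gene to show the place of CACGTG in each, which began 78 bases before the start in Brdt, 93 in Slc25a31 and Tex12, and 94 in Sycp1. Capitals mark CACGTG and the letters GCGGGA or their complement TCCCGC; the 2 motifs do not overlap in these promoters.
Brdt (chr5:107330944-107331243, plus strand): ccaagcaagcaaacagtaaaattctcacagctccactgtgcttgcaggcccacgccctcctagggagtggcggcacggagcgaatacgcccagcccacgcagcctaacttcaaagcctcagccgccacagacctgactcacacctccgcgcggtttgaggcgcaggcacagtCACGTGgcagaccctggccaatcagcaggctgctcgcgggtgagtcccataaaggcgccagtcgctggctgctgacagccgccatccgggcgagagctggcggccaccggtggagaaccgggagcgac
Slc25a31 (chr3:40708621-40708920, plus strand): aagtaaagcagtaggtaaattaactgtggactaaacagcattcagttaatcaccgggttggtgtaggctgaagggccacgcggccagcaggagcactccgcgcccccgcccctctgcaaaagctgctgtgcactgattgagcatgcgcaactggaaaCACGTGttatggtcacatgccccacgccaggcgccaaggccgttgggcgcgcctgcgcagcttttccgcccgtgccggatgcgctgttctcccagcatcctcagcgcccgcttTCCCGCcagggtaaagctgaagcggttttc
Sycp1 (chr3:102936051-102936350, minus strand): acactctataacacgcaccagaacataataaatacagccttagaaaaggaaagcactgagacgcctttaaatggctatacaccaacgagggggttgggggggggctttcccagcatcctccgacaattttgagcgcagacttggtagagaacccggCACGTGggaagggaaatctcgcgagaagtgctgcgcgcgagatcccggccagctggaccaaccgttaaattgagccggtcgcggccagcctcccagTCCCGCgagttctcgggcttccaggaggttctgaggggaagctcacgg
Tex12 (chr9:50561219-50561518, minus strand): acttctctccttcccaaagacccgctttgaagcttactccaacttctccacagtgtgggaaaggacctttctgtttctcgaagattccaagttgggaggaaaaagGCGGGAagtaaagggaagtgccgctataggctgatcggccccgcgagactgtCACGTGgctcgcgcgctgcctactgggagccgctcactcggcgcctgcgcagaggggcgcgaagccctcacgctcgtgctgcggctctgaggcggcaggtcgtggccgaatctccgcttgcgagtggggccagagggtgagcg
The 4 promoters held 23, 22, 21, and 26 CpG dinucleotides, in the order printed, against a median of 24 among the genes compared in germ cells and 8 in the whole table. These are matches of letters, and no binding or methylation was measured here.

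Of the pluripotency network, 20 of 24 genes were compared, none was at least 2-fold higher and 1, Tfcp2l1, was lower, counts near the 1.58% and 1.74% of all genes, with a median log2 ratio of -0.20 against 0.03. Tfcp2l1, a factor of the naive state, had 16.2 and 7.26 CPM (2.23-fold lower, 1.49 to 3.31), but its log2 ratio was -0.92 with at least 2 of the 6 genes and -0.96 with per-cell CPM, under the limit. It was under 10 CPM at E12.5 and passed the filter through E11.5, where it is higher, so that its place in the count is fixed by it. Sall4 had 165 and 109 CPM, Zfp42 206 and 152 CPM, Sox2 139 and 122 CPM, and Esrrb 19.6 and 13.9 CPM, whereas Utf1 had 674 and 813 CPM and Dppa5a was also slightly higher at E12.5. Among genes of germ cell specification, 10 were compared and none passed the limit, with a median of -0.23 (0.08 after thinning). Tfap2c, a transcription factor needed for germ cell fate, was closest, with 46.8 and 23.0 CPM (2.04-fold lower, 1.63 to 2.55, which is under 2-fold once 1 CPM is added). Nanos3, an RNA-binding protein that protects migrating germ cells, had 59.2 and 41.5 CPM, Prdm1 30.3 and 25.3 CPM, and Ifitm3 599 and 570 CPM.

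Among 6 compared genes of the meiosis list, Smc1b and Tex12 were at least 2-fold higher, where 1.58% of all genes were, and all 6 had a ratio above 1, with a median of 0.63 against 0.03 for all genes, and 0.53 over the 20 listed genes with a UMI. Tex12, of the synaptonemal complex, had 15.8 and 35.4 CPM (2.24-fold, 1.63 to 3.12). The other 15 listed genes were too low to compare in sums. Stra8, the gatekeeper of meiosis, had no UMI in the 175 germ cells of E11.5, which allows a UMI in up to 1.71% of cells (exact limit, 2.09%) and sets no limit on cells that express it, and 46 UMIs in 20 of 445 germ cells at E12.5 (4.49%, 2.77 to 6.86), up to 11 UMIs in 1 cell. Among cells with none of the 6 genes, Stra8 was in 1 cell at E11.5 and in none at E12.5. Nanos2, which marks the male germ cell fate and represses Stra8, had no UMI at E11.5 and 13 UMIs in 12 cells at E12.5 (2.70%, 1.40 to 4.66), and 1 cell had a UMI of both. Rec8 was detected in 3.43% and 7.64% of germ cells and Meioc in 2.86% and 8.54%. After thinning, Stra8 was in 0 and 1.57% of germ cells, Nanos2 in 0 and 0.674%, Rec8 in 0.613% and 1.12%, and Meioc in 0.613% and 2.47%, which are levels of few UMIs. Dnmt3l, the cofactor of de novo methylation in later male germ cells, had no UMI at either stage, which allows a UMI in up to 1.71% and 0.674% of cells (exact limits, 2.09% and 0.826%).

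Of 7 compared genes of male germ cell differentiation, 1, Ddx25, was at least 2-fold higher, where 1.58% of all genes were, with 7.91 and 19.8 CPM (interval of the ratio, 1.61 to 4.05), though the other cells also held it at 13.9 and 14.4 CPM. Ddx25 was under 10 CPM at E11.5 and passed the filter through E12.5, where it is higher, so that its place in the count is fixed by it. The list median was 0.56, and 0.32 over the 13 listed genes with a UMI. The Nodal antagonists Lefty1 and Lefty2 had 56.8 and 107 CPM and 146 and 182 CPM, and Nodal itself had 13.1 and 7.15 CPM. Lefty1 was detected in 50.3% and 75.7% of germ cells (17.8% and 26.1% after thinning) and in none of the endothelial cells. Of 6 compared genes of the Rhox cluster of homeobox genes on the X chromosome, 1, Rhox1, was higher, against the same share of all genes (23.4 and 51.4 CPM, 2.20-fold, 1.70 to 2.88), Rhox5 was close (651 and 678 CPM), and Rhox9 had 442 and 308 CPM; members of this cluster share sequence, and their reads may be divided.

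**Figure D4:**
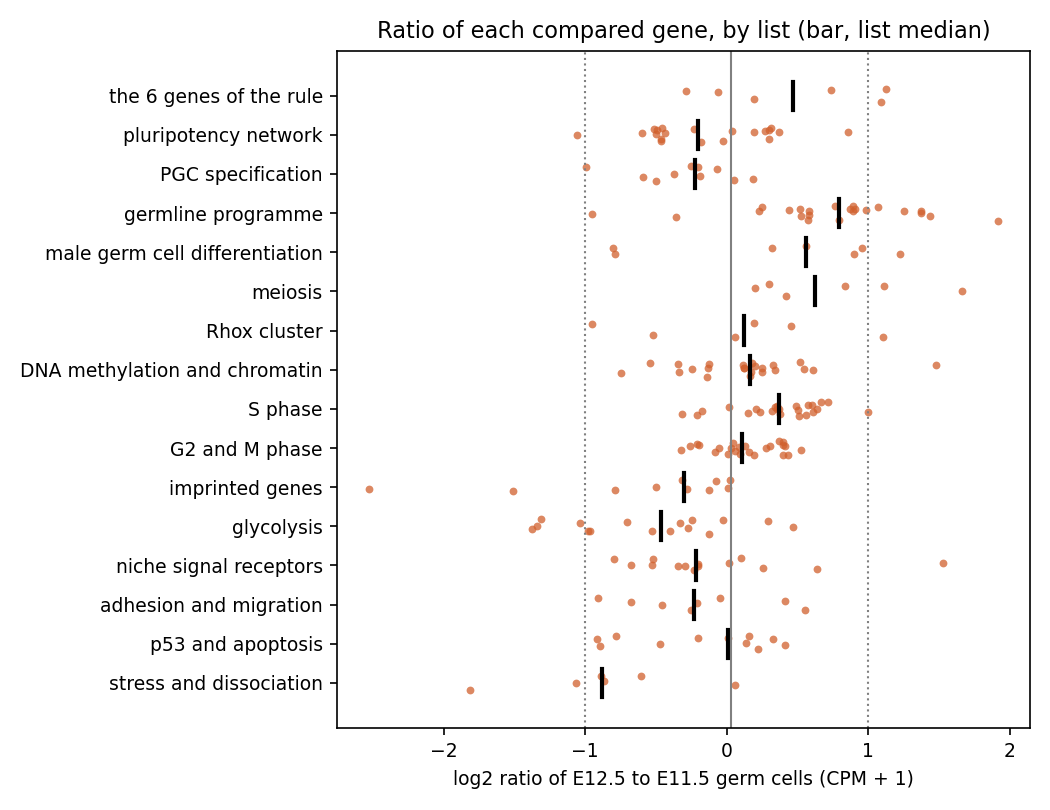
Log2 ratio of E12.5 to E11.5 germ cells for every compared gene of 16 lists, with 1 point per gene and the list median as a bar; the grey line is the median of all 7259 genes (0.03) and the dotted lines mark a 2-fold difference. The germline programme (0.79), meiosis (0.63), and male differentiation (0.56) lie to the right, and glycolysis (-0.46) and stress genes (-0.88) to the left. Over all listed genes with a UMI, these medians were 0.67, 0.53, and 0.32, then -0.40 and -0.61.

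Of the genes for DNA methylation and chromatin, 1 of 23 was at least 2-fold higher and none lower, where 1.58% and 1.74% of all genes were, so that the count is near that of all genes, and the median was 0.16. This was Uhrf1, which brings Dnmt1 to newly replicated DNA, with 8.60 and 25.8 CPM (3.00-fold, 1.98 to 4.73) and detection in 12.0% and 34.6% of germ cells (1.23% and 4.49% after thinning). Uhrf1 was under 10 CPM at E11.5 and passed the filter through E12.5, where it is higher, so that its place in the count is fixed by it. With at least 2 of the 6 genes its log2 ratio was 0.82 in place of 1.48, which ended the call. It remained lower than in the other cells, where it had 63.4 and 65.6 CPM. Dnmt1 itself had 113 and 141 CPM in germ cells and 48.1 and 65.1 CPM in the others. No count of this list against the other cells is given, since members such as Uhrf1 at E11.5 passed the filter only through those cells, where they are high. Germ cells had more Hells, a chromatin remodeler (507 and 603 CPM against 88.7 and 93.0 CPM), and more Tet1, which oxidizes methylcytosine (130 and 118 against 15.4 and 17.8 CPM), and less Dnmt3a, a de novo methyltransferase (19.6 and 17.8 against 60.4 and 68.3 CPM).

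Of the imprinted genes, many passed the filter only through the other cells, where they are high, so that no count against those cells is given. Among those with lower levels in germ cells were Meg3 (15.5 and 14.6 CPM against 381 and 604 CPM), Mest (47.1 and 47.6 against 920 and 775 CPM), and Dlk1 (4.82 and 6.79 against 200 and 280 CPM). Snrpn was higher in germ cells in both libraries, with 121 and 123 CPM. Between the stages, 2 of the 10 compared, Phlda2 and H19, were at least 2-fold lower at E12.5 and none was higher, where 1.74% and 1.58% of all genes were. Phlda2, a growth-restraining gene, had 38.5 CPM at E11.5, from 112 UMIs in 49 cells with up to 13 in 1 cell, and 5.86 CPM at E12.5 (6.58-fold lower, 4.67 to 9.38), and was in no endothelial cell. Being under 10 CPM at E12.5, it passed the filter through E11.5, where it is higher, so that its place in the count is fixed by it. H19 had 38.5 and 12.9 CPM (2.99-fold lower, 2.28 to 3.93), but it was abundant in the other cells (497 and 378 CPM), was not past the limit without a cell filter (log2 ratio -0.74), and was detected in 97.9% and 100% of endothelial cells.

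The cell cycle lists are given for germ cells and the other cells side by side, and the difference between them was not tested. Of 24 S phase genes, Prim1, the primase subunit, was at the limit in germ cells (61.9 and 125 CPM, 2.02-fold, 1.72 to 2.37), where 1.58% of all genes passed it, and 21 had a ratio above 1, with a median of 0.37 in germ cells and 0.17 in the other cells. Prim1 was past the limit in only 4 of 11 alternatives of processing (log2 ratio 0.46 after thinning). Of 24 genes of the G2 and M phases, none passed the limit in germ cells, with a median of 0.11, whereas in the other cells all 24 had a ratio above 1, 2 passed the limit, where 1.54% of all genes did, and the median was 0.65 against 0.08 for all genes. The makeup of the other cells also changed, with the erythroid list at 12116 and 715 CPM and the Sertoli list at 1730 and 2938 CPM, and the part of this in their values was not tested. Top2a, for example, had 390 and 402 CPM in germ cells and 169 and 284 CPM in the others, and Mki67 had 93.9 and 94.3 CPM and 50.9 and 87.3 CPM. Among inhibitors of the cycle, Cdkn2a, which encodes p16 and p19, had 14.1 and 2.46 CPM (5.73-fold lower, 3.31 to 10.2) and was in 18.3% and 4.72% of germ cells (3.68% and 0.899% after thinning). Being under 10 CPM at E12.5, Cdkn2a passed the filter only through E11.5, where it is higher. Of the D cyclins, Ccnd3 had 221 and 137 CPM in germ cells, Ccnd2 5.85 and 7.15 CPM, and Ccnd1 1.72 and 5.86 CPM, whereas in the other cells Ccnd2 had 308 and 311 CPM.

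**Figure D5:**
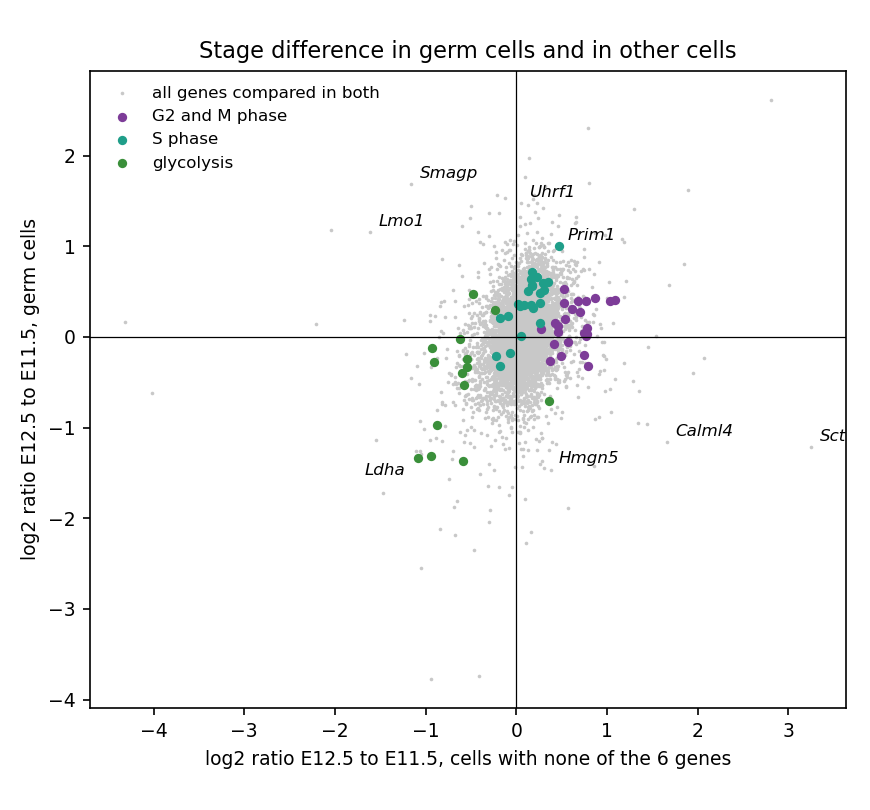
Log2 ratio of E12.5 to E11.5 in cells with none of the 6 genes (horizontal) and in germ cells (vertical) for genes compared in both. The 24 genes of the G2 and M phases lie to the right of 0 (median 0.65) but around 0 vertically (0.11), and Ldha is lower on both axes.

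Some glycolysis genes were lower at E12.5 in both groups of cells. In germ cells, 4 of 16, namely Ldha, Pfkl, Slc2a3, and Tpi1, were at least 2-fold lower, where 1.74% of all genes were, and the median was -0.46. In the other cells 2 of 15 were lower, where 1.19% of all genes were, with a median of -0.60. Ldha, lactate dehydrogenase, had 90.2 and 35.0 CPM in germ cells and 1295 and 612 CPM in the other cells, and Tpi1, a triosephosphate isomerase, had 72.6 and 28.6 against 642 and 333 CPM. The log2 ratio of Ldha in germ cells, -1.34, was -2.24 with at least 2 of the 6 genes and just under the limit with at least 4. Both were more abundant in the other cells and lower there too at E12.5, and the part of transcripts from other cells in the germ cell values was not tested. Slc2a3, a glucose transporter, was instead enriched in germ cells, with 37.9 and 17.9 CPM (2.11-fold lower, 1.64 to 2.72) against 3.70 and 3.65 CPM, but it was past the limit in only 7 of 11 alternatives. The summed list had 4125 and 3569 CPM in germ cells and 10943 and 6947 CPM in the others.

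Some somatic and stress genes also differed between the stages in germ cells. Aard and Lhx9, on the Sertoli and coelomic epithelium lists, had 40.3 and 14.4 CPM and 11.4 and 2.93 CPM in germ cells and were lower at E12.5, while the other cells held 370 and 672 CPM of Aard and 216 and 209 CPM of Lhx9. Without a cell filter, the log2 ratios of Aard and Lhx9 were -0.22 and -0.63 and no longer past the limit, and the part of somatic transcripts in them was not tested. Lhx9 was under 10 CPM at E12.5 and passed the filter only through E11.5, where it is higher. Of 6 stress genes, 2 were at least 2-fold lower at E12.5, where 1.74% of all genes were. These were Ier3 (18.6 and 4.57 CPM) and Jun (13.1 and 5.74 CPM). Jun was no longer past the limit with no cell filter (log2 ratio -0.63) or with at least 2 of the 6 genes (-0.97). Both genes were under 10 CPM at E12.5 and passed the filter through E11.5, where they are higher. Their place in the count is thus fixed by it. Fos had 20.0 and 10.3 CPM in germ cells and 229 and 241 CPM in the other cells. Cldn5, on the endothelial list, was higher at E12.5 (6.19 and 13.8 CPM, 2.23-fold, 1.35 to 3.90), but not past the limit with at least 2 of the 6 genes (log2 ratio 0.64). It was under 10 CPM at E11.5 and passed the filter only through E12.5, where it is higher.

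For the receptors of niche signals, no count against the other cells is given. Members such as Igf1r at E11.5 passed the filter only through those cells, where they are high. Kit had 59.2 and 51.3 CPM in germ cells, detected in 53.7% and 64.9% (14.1% and 13.7% after thinning), and its ligand Kitl had 3.10 and 0.937 CPM in germ cells and 80.6 and 72.0 CPM in the others. Cxcr4 had 14.8 and 8.90 CPM, and its ligand Cxcl12 had 47.5 and 62.7 CPM in the other cells. Of 14 receptors compared between stages, Igf1r, the insulin-like growth factor receptor, passed the limit, where 1.58% of all genes were higher, with 3.79 and 12.8 CPM (3.37-fold higher, 1.81 to 6.96), still under the 38.3 and 43.7 CPM of the other cells. Igf1r was under 10 CPM at E11.5 and passed the filter through E12.5, where it is higher, so that its place in the count is fixed by it. With at least 2 of the 6 genes its log2 ratio was 0.81 in place of 1.52, which ended the call. The retinoic acid receptors Rara and Rarg had 14.8 and 23.5 CPM and 11.7 and 6.33 CPM. Of the adhesion genes, none of 8 passed the limit between stages, and Epcam, an epithelial adhesion protein, had 292 and 429 CPM in germ cells against 7.89 and 6.47 CPM. Of 11 compared genes of p53 and apoptosis, none passed the limit, and Bax, which promotes cell death, had 373 and 375 CPM against 131 and 135 CPM.

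Among single germ cells at E12.5, cell cycle genes were among those that led the first 2 principal components, which held little of the variance. The first, with 2.31%, ran from Cenpf, Prc1, Cdc20, and Ube2c, which are used in mitosis, to Hat1, Slbp, and Cdc45, which are used in S phase, together with the chaperonin genes Cct4 and Cct8, the proteasome genes Psma2 and Psma4, Ssb, Fbl, and Dppa3. It had a rank correlation of -0.34 with the mitochondrial share and of 0.16 with depth over 445 cells. The second, with 2.09%, ran from Cdc20, Ccnb1, and Tubb4b to histone genes such as Hist1h1b with Slbp, Ung, and Mcm5, and with Rhox6 and Rhox9. The E11.5 components (4.38% and 3.01%) were led by genes of mixed kind, and the first had a rank correlation of 0.51 with depth over 175 cells. After thinning to 3000 UMIs, the summed S phase and G2 and M phase lists had a rank correlation of -0.42 over 445 cells at E12.5 and -0.19 over 163 at E11.5. The pluripotency and germline lists had a rank correlation of 0.11 over 163 cells at E11.5 and -0.06 over 445 at E12.5. The points of each of these are cells of 1 library at 1 depth, and values this weak in sparse counts are not read as a relation.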

How the data were processed

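The authors sequenced RNA of single cells with the version 2 reagent kit for the in vivo gonads and deposited, for each library, a matrix of UMI counts per gene and cell barcode, without normalization. The labels and methods name Cell Ranger 3.0.2 and mm10, and the file headers name Cell Ranger 6.0.0. The labels' extraction note speaks of female gonads, while the sample titles give XY. Cells were retained with the limits of the study's methods. Counts were summed over the germ cells of a library and scaled to CPM by their total, and a gene was compared with at least 20 UMIs over both groups and 10 CPM in the higher one. A gene under 10 CPM in the lower group was compared only through the higher one, so that its place in a count is fixed by this filter. Ratios as folds are of CPM, with exact conditional binomial intervals, and calls use log2(CPM + 1). Levels are of 3′ tags and are not per length. Single genes named for their size were the 12 per direction with the largest ratio among those with at least 50 CPM and 50 UMIs and at least 2 times the level of the other cells in the library where they were higher; against the other cells, the 12 per direction with at least 100 CPM that were furthest apart in the library with the lesser difference were named; others come from the lists or lead a principal component. Endothelial cells had at least 3 of 6 endothelial markers and under 3 of the 6 germ cell genes. Principal components used the 1000 most variable genes among those in at least 10% of the germ cells. These genes also had to be at least as high in germ cells as in cells with none of the 6 genes, so that genes higher in the other cells could not lead a component. The members and lists were chosen with earlier results of these data known. Doublets were left in, and Scrublet in scanpy 1.11.5, edgeR 4.0.16 (TMM factors only) in R 4.3.3, and other choices of cells, filter, and pseudocount were alternatives. The steps, in Python 3.11.15 (scipy 1.17.1, numpy 2.4.6; figures by matplotlib 3.10.9; tables by pandas 2.3.3), were tested on simulated data. A count of 0 was taken to allow 3 counts. A result for 1 listed gene is not reported here. Gcna, on the germline list, was not found in the matrices. Gene positions are from GENCODE on GRCm38, the assembly of mm10.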

Additional observations from a re-analysis of the deposited data

Results flagged for a closer look

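At E10.5, a stage outside the comparisons above, 9 of 3837 retained cells (0.235%, 0.107 to 0.445) met the rule for germ cells, above the 0.0782% that a count of 0 allows. All 9 held 4 or 5 of the 6 genes, all had Pou5f1 and Dppa3, and Dazl was in 6 and Ddx4 in 2 of them. The 2 cells found among the 2285 of D6 (0.0875%) held exactly 3 of the genes, and both also had Dppa5a and Utf1, at 3279 and 378 CPM against 1.35 and 3.23 CPM in the D6 cells with none of the 6 genes. The share of 0.0875% was under the 0.131% that a count of 0 allows at D6. After thinning to 3000 UMIs, no D6 cell met the rule.

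Of the genes called between the stages in germ cells, 65 higher and 85 lower ones could also be compared in cells with none of the 6 genes. There, 5 and 8 of them were at least 2-fold different in the same direction. In 5 genes (3 and 2), the ratio of E12.5 to E11.5 was at least 2-fold in opposite directions in germ cells and in cells with none of the 6 genes, and the difference was not tested since each stage is 1 library. Lmo1 was higher in germ cells (log2 ratio 1.16; 23.1 and 52.6 CPM) and lower in the other cells (-1.61; 49.0 and 15.4 CPM). Smagp (1.68 and -1.16) and Nup62cl (1.18 and -2.04) followed the same course. Sct (-1.22 and 3.26) and Calml4 (-1.16 and 1.66) were lower in germ cells and higher in the other cells.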

How the results depend on the processing

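The share of germ cells at E11.5 was 10.0% with at least 2 of the 6 genes, 7.09% with at least 4, and 6.64% after thinning, and the share at E12.5 was 14.3% after thinning; the other choices of cells left both shares within their intervals, and E12.5 was higher under all of them. Numbers of called genes depended on the filters. With at least 2 of the genes, 221 genes were lower, and with the mean of per-cell CPM, 201. With a pseudocount of 10 CPM, 22 were higher and 33 lower. Without a filter on low counts, 358 were higher and 497 lower, and with at least 100 UMIs and 50 CPM, 24 and 23. Thinning, with the rule applied again to the thinned counts, gave 379 and 199, of which 63 and 34 were among the 115 and 126 reported. Restricting to genes at least 2 times higher in germ cells than in the other cells, in the library where the gene was higher, gave 63 and 44. A gene could thus pass this restriction only through the stage where it was high. The share and medians given below among genes enriched in germ cells rest on this choice. With the same cell filter in both libraries, 124 were higher and 131 lower, of which 108 and 119 were among those reported. The higher genes were 47.7% of all calls as reported, 32.4% with at least 2 of the genes, 53.5% with at least 4 (131 and 114), 65.6% with thinning, 37.0% with per-cell CPM, and 58.9% among genes enriched in germ cells. The 42 called genes followed through the 12 alternatives kept their direction in every alternative in which they could be compared, and 13 also stayed past 2-fold in each of those. Alternatives that changed only which genes were compared (the 2 other count filters and the restriction to genes higher in germ cells) reuse the reported ratios. They could not alter direction or size, and a pseudocount of 10 CPM could not change a sign. Among log2 ratios no longer past the limit of 1 were Uhrf1 (0.82), Igf1r (0.81), Lmo1 (0.96), Cldn5 (0.64), Aard (-0.66), and Mt2 (-0.79) with at least 2 of the genes, Dazl (0.71), Mrps31 (0.47), Prim1 (0.46), Actn2 (0.86), and Cep89 (-0.55) after thinning, and Brdt (0.76) and Nae1 (0.93) with per-cell CPM; the cause was not tested. None of these 42 changed sign, and the other called genes were not followed singly. Of the list medians, that of imprinted genes (-0.30) was -1.11 with at least 2 of the genes, -0.04 with at least 4, and -1.25 among genes enriched in germ cells, that of stress genes (-0.88) was -0.37 after thinning and between -0.53 and -0.62 with at least 4 of the genes, no cell filter, a pseudocount of 10 CPM, or either other count filter, and that of glycolysis (-0.46) was -1.01 among genes enriched in germ cells. The median of cell cycle inhibitors (-0.29) lay between -1.08 and 0.08. That of meiosis genes (0.63) was 0.90 after thinning and 0.98 with at least 100 UMIs and 50 CPM. List medians near 0 changed sign: that of p53 and apoptosis genes (0.01) was -0.21 with at least 2 of the genes and -0.37 without a filter on low counts, those of specification genes and niche receptors were 0.08 and 0.18 after thinning, and that of cell cycle inhibitors was 0.08 without the filter. Scrublet called 56 cells at E11.5 and 25 at E12.5, of which 6 and 7 were germ cells. No paired analysis was possible because each stage is 1 library. Without replicates, the spread between embryos is unknown, and genes under about 10 CPM rest on few UMIs, above all in the shallower sum of E11.5.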

Other observations

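Xist, the RNA of X chromosome inactivation, was looked at after its values were seen. It had 22 UMIs in 16 of the 175 germ cells at E11.5 and 4 UMIs in 4 of 445 at E12.5, and was in 5 of 1661 and 1 of 1992 cells with none of the 6 genes. Of the 16 Xist-positive germ cells at E11.5, 15 also had a UMI of at least 1 of 4 Y-linked genes (93.8%), against 80.5% of the 159 germ cells without Xist. At most 4 UMIs of Xist were found in 1 cell.

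Some meiosis genes that were too low for the comparison of sums had UMIs at both stages. Sycp2 had 4 and 48 UMIs (1.38 and 5.62 CPM), Dmc1 3 and 35 UMIs (1.03 and 4.10 CPM), and Spo11 6 and 32 UMIs (2.06 and 3.75 CPM), and the interval of the last ratio, 0.749 to 5.31, includes 1. Mei1 had none at either stage. Piwil4 had 1.03 and 1.05 CPM.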
